A study of Rattus norvegicus with 30 samples.

Results

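The genes described here are the regulators and known targets of the hypoxia-inducible factors (HIF) in the rat testis, followed over 6 in vivo ages and 4 culture times by bulk RNA sequencing. They were chosen as a fixed list of 37 rat gene symbols matched by Entrez identifier. The rule held no measured value, but the list was made with earlier results of these data known. A row was found for 36 of them among the 17322 genes of the table, and Egln1 was not analysed here. Pfkfb4 and Tpi1 were listed at 0 in all 29 libraries; because Tpi1 encodes a glycolytic enzyme that cells in general use, such a 0 can be a failed estimate and was not read as absence. The remaining 34 genes had values above 0.

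The in vivo groups were whole testes of Wistar rats at 6 ages from 8.5 to 53.5 days postpartum (dpp), untreated, with 3 testes a group. At 14.5 dpp, 2 testes entered the comparisons. The third library, called an outlier by its label, was left out and was listed at 0 for every gene. The study excluded this testis because its transcriptome differed from that of the other 2. The in vitro groups were explants of 8.5 dpp testes, cut into 6 fragments and kept on agarose gel at the gas-liquid interphase under 5% CO2 and 95% air for 6, 16, 22 or 28 days (D6, D16, D22, D28), in αMEM with knock-out serum replacement, retinol and vitamin E, with 3 libraries a time. In age, D6 matches 14.5 dpp, D16 matches 24.5 dpp, D22 matches 30.5 dpp and D28 matches 36.5 dpp. Each culture library pooled 12 explants from at least 3 juvenile males, and the necrotic centre of the explants had been cut away before storage, so the RNA represents only the outer, surviving tissue. Cultured tissue has no circulation, and no group without culture supplements or with another oxygen level was part of the comparisons.

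HIF is a pair of proteins: an alpha subunit (HIF-1α, from Hif1a, or HIF-2α, from Epas1) and a stable beta subunit (from Arnt). When oxygen is plentiful, prolyl hydroxylases of the EGLN family mark the alpha subunit, the VHL protein recognises the mark, and the subunit is degraded; when oxygen is scarce, it escapes and switches on genes for glucose uptake, glycolysis, vessel growth, collagen processing and mitochondrial turnover. This control acts on the protein, so the level of Hif1a mRNA is not a measure of HIF activity. In the testis, Sertoli cells pass lactate to the meiotic germ cells, and germ cells use their own forms of several glycolytic enzymes.

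HIF binds short elements with the core letters ACGTG or GCGTG, and the windows upstream of the gene starts are shown to let the reader see where these letters lie in targets that were deregulated in culture and in others that were not. The 250 bases before each start were taken from RefSeq (build GRCr8), and both motifs were searched on both strands. A palindrome of the kind CACGTG holds the first motif on each strand and so counts as 2 matches. At least 1 match was found for 21 of the 31 HIF genes with an entry in the table (67.7%), and for 47.4% of 13624 genes in all. The stretches below run 5′ to 3′ on the strand of the gene, with matches in capitals. Bhlhe40, Slc2a1, Pfkl and Pdk1 were called higher in at least one culture time than at 14.5 dpp, whereas Bnip3 and Hif1a were in none.
Bhlhe40 (chr4:143174222-143174338, plus strand): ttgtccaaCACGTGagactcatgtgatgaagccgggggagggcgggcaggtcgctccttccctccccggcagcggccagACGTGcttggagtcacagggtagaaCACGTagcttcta
Slc2a1 (chr5:138002361-138002518, plus strand): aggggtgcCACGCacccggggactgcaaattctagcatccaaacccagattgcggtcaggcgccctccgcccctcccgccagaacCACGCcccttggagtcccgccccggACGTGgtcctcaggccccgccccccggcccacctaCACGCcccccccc
Pfkl (chr20:10663742-10663817, plus strand): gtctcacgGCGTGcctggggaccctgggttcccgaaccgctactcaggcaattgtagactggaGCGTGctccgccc
Pdk1 (chr3:77113375-77113472, plus strand): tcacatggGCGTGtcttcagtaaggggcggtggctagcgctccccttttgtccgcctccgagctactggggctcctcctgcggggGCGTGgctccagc
Bnip3 (chr1:203155040-203155078, minus strand): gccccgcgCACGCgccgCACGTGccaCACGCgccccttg
Hif1a (chr6:98359661-98359746, plus strand): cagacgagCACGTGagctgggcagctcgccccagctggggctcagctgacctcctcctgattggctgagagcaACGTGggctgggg

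In the 250 bases searched, Vegfa, Adm, Egln3 and Slc16a3 held no match, and elements elsewhere in these genes were not searched for. These genes are among those with the largest differences in culture. Of the genes called higher at some culture time against 14.5 dpp, 7 of 11 with a window held a match, against 14 of the 18 others that were tested. Ndrg1, Ero1a, Bnip3l, Lox and Loxl2 have no entry in the table. A match is a description of the letters and not of a binding site.

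Expression is given as FPKM, fragments scaled by transcript length and library size, which allows levels of different genes to be set side by side. Differences are on the log2(FPKM + 1) scale, which understates the change of low genes. A gene was called when its adjusted p (limma, Benjamini-Hochberg over all genes tested) was at most 0.05 and its group medians differed at least 2 times. Since no read counts were given, the depth behind each value is unknown; the libraries held 12520 to 13563 genes above 0.

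The cell makeup of the groups differed, and was followed with 9 lists of markers, of which 47 of 50 genes were found. Sertoli markers summed to 237 to 314 FPKM at 14.5 dpp and to 237 to 338 FPKM over the 12 culture libraries, and to 15.6 to 19.0 FPKM at 53.5 dpp; 1 of the 6 was listed at 0 in every library. Spermatid markers reached 1.143e+04 to 1.688e+04 FPKM at 53.5 dpp and stayed at 2.34 to 6.48 FPKM in culture. Endothelial markers summed to 31.6 to 37.5 FPKM at 14.5 dpp and to 54.0 to 106 FPKM in culture. Macrophage markers summed to 28.6 to 30.2 FPKM at 14.5 dpp and to 52.4 to 96.1 FPKM in culture. Within these lists the markers differed. Pecam1 (9.12 to 11.5 FPKM at 14.5 dpp, 18.8 to 29.9 FPKM at D28), Cdh5 (12.2 to 15.2 FPKM and 18.9 to 30.8 FPKM) and C1qa (13.6 to 14.2 FPKM and 24.2 to 50.8 FPKM) were higher, whereas Emcn was lower at D28 (2.13 to 2.20 FPKM and 0.325 to 0.985 FPKM) and Mrc1 overlapped (7.90 to 9.54 FPKM and 7.95 to 9.62 FPKM). Among Sertoli markers, Amh was lower at D28 (52.8 to 85.3 FPKM and 28.5 to 43.8 FPKM) and Fshr higher (6.29 to 10.1 FPKM and 13.4 to 17.4 FPKM). Leydig markers summed to 145 to 306 FPKM at 14.5 dpp and to 12.7 to 36.8 FPKM in culture, and red cell markers to 761 to 1030 FPKM and to 1.17 to 8.55 FPKM, of which Alas2 made up 4.41 to 8.49 FPKM at D28 (2.84 to 3.27 FPKM at 14.5 dpp). In bulk tissue, fewer cells of a type and less RNA per cell cannot be told apart, and the part of these cell types in the results below was not tested.

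**Figure D1:**
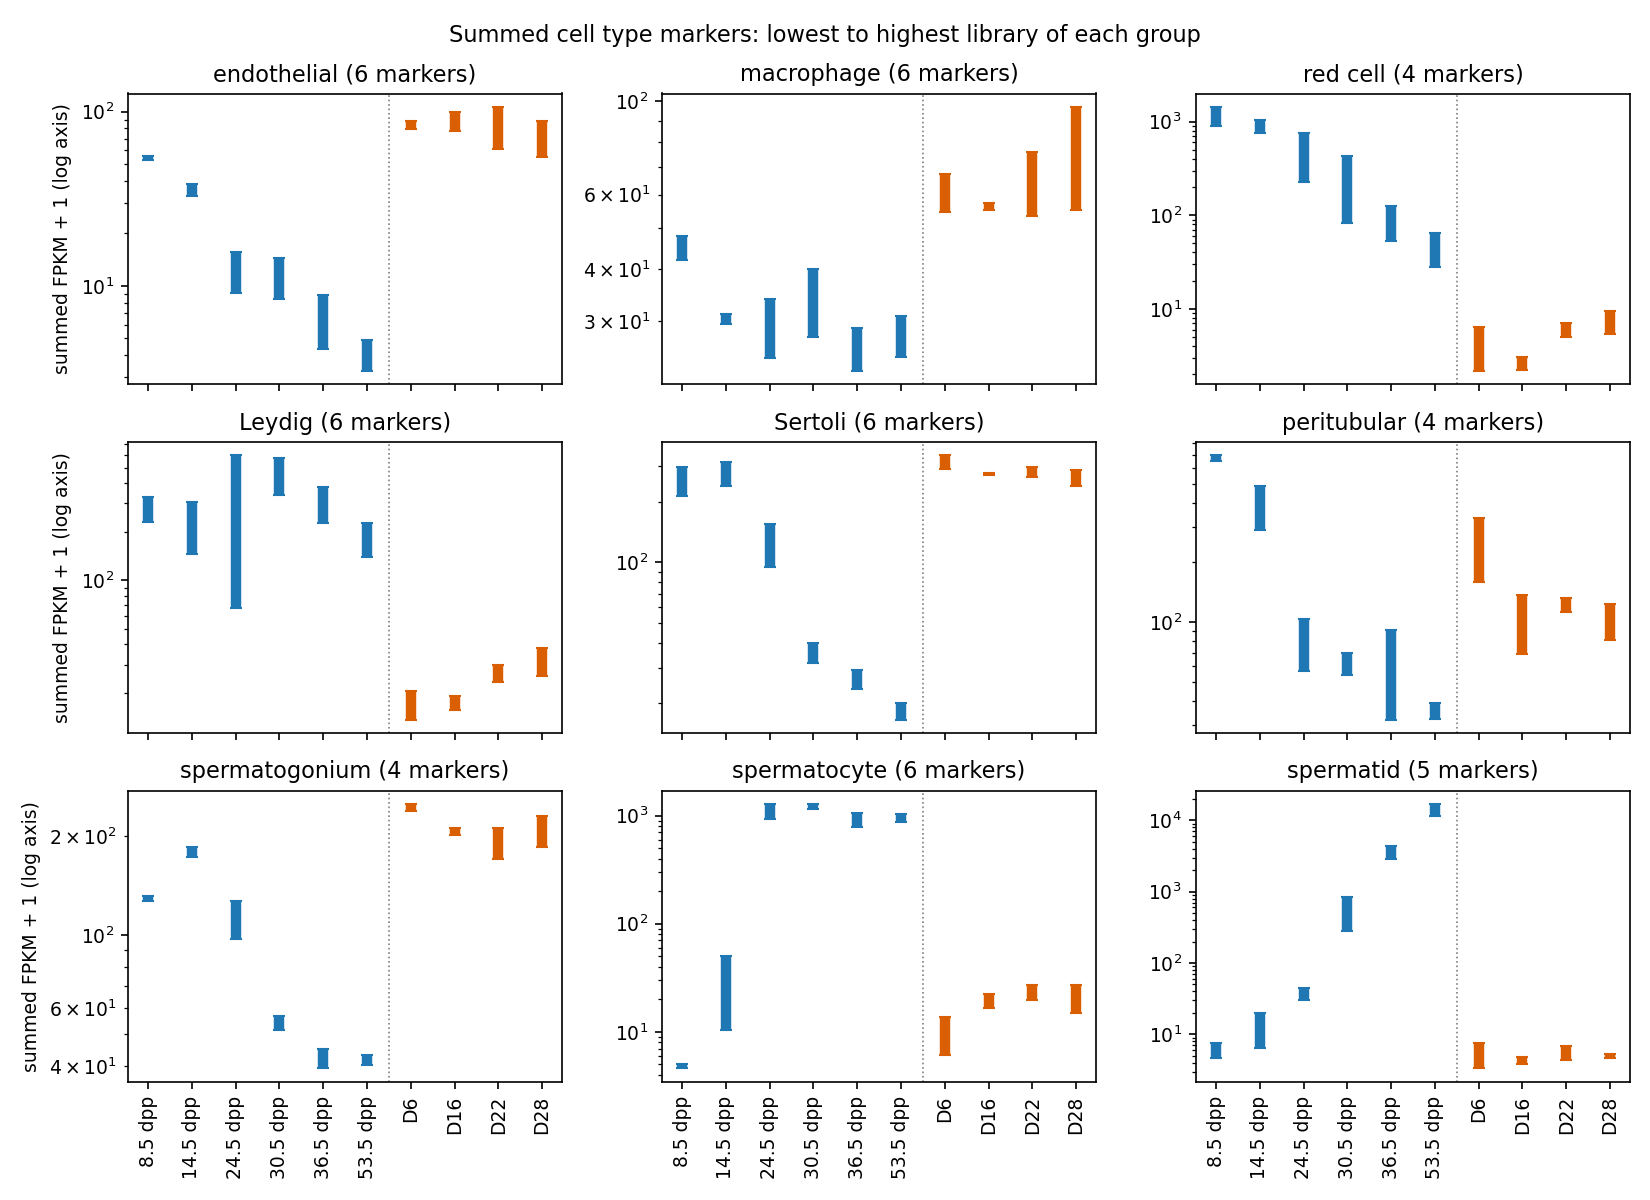
Summed FPKM (+ 1, log axis) of 9 lists of cell type markers in 10 groups; each bar runs from the lowest to the highest library, in vivo in blue and culture in orange. The Sertoli sum in culture overlaps or lies near that of 14.5 dpp, and the endothelial and macrophage sums lie above it. The spermatogonium sum overlaps or lies above it, and the peritubular sum lies below it from D16 on. The Leydig, red cell and spermatid sums lie low, and the spermatocyte sum lies far below those of 24.5 dpp and later. Single markers within a list can run the other way.

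A main question of the design was how cultured tissues differed from testes of 14.5 dpp, the age that the explants reached at D6. Of the 34 HIF genes, 9 to 11 were called higher at each of D16, D22 and D28, 23 to 25 were not called, and none was called lower. Secreted vessel signals (Vegfa, Adm), glucose and lactate transporters (Slc2a1, Slc16a3), the phosphofructokinase subunit Pfkl, the prolyl hydroxylase Egln3, the repressor Bhlhe40 and the stress gene Ndrg1 rose in each of D16, D22 and D28. These 8 are 8 of 34, where 5.69% of 11517 genes were called higher in all 3 and 3.76% lower. Because the list was made with earlier results of these data known, these shares are a description and not an independent test. Called higher were 10 genes at D16 (6.56% of all genes, with 5.35% called lower), 11 at D22 (7.34%, with 5.51% lower) and 9 at D28 (7.63%, with 6.01% lower). The median difference at D28 was 0.58 for the 34 genes and -0.08 for all genes tested. The summed endothelial and macrophage markers were also higher in the same libraries, as given above, though not each marker was.

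**Figure D2:**
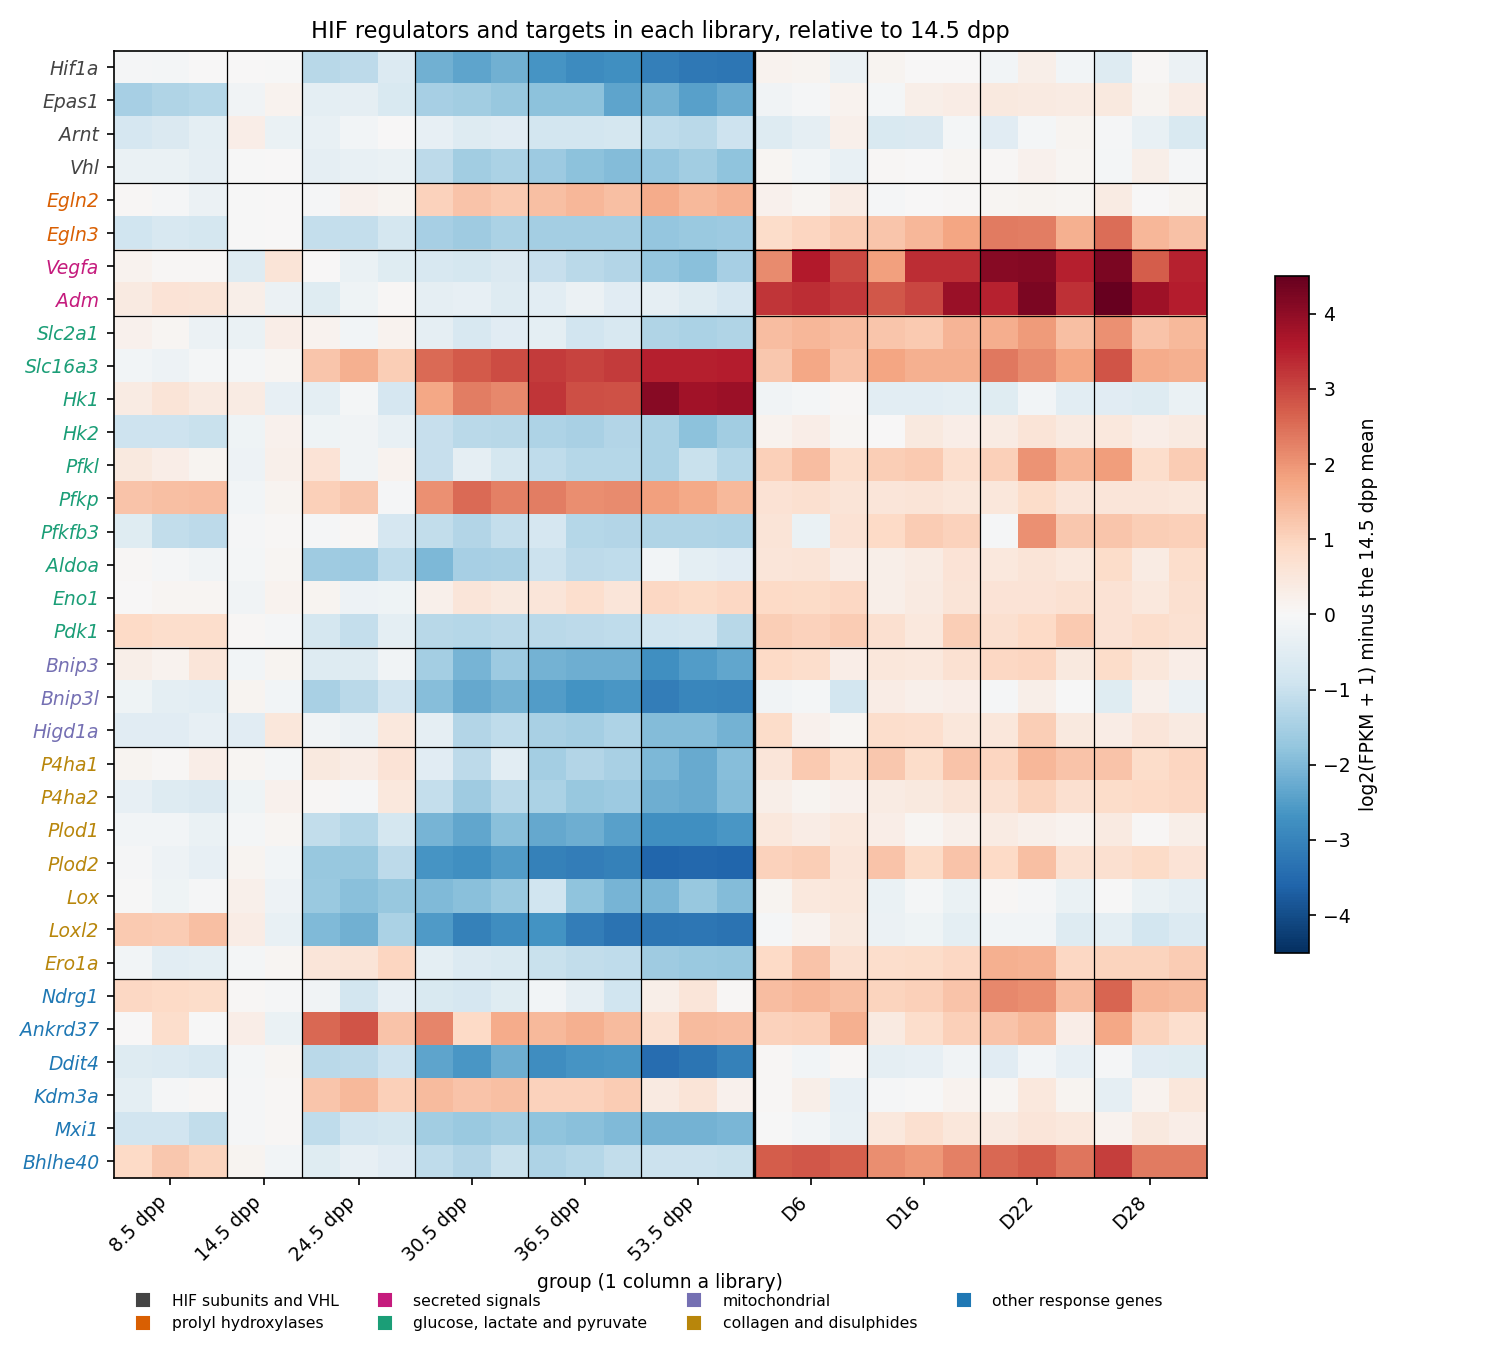
Log2(FPKM + 1) of 34 HIF regulators and targets (rows, grouped by role) in each of the 29 libraries (columns), minus the mean at 14.5 dpp. Red in culture is strongest for Vegfa, Adm and Bhlhe40, and also seen for Slc16a3, Egln3 and Ndrg1. Most rows turn blue in vivo after 24.5 dpp, while Hk1, Slc16a3, Pfkp, Egln2, Ankrd37 and Kdm3a are among those that turn red.

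Neither subunit of HIF nor VHL was called in any culture time against 14.5 dpp. Hif1a, the alpha subunit of HIF-1, stood at 55.5 and 55.2 FPKM at 14.5 dpp and at 61.2, 60.2 and 46.4 FPKM at D6. At D28, the Hif1a values were 37.1, 57.2 and 46.4 FPKM, which overlap those of 14.5 dpp (difference -0.26 ± 0.18 standard error, adjusted p 0.274). Epas1, the alpha subunit of HIF-2, showed 23.05 and 29.3 FPKM at 14.5 dpp against 35.9, 28.6 and 32.6 FPKM at D28 (0.30 ± 0.15, adjusted p 0.149). Vhl, which recognises the hydroxylated alpha subunits, differed by 0.04 ± 0.12, and Arnt, the beta subunit, by -0.36 ± 0.28, and neither passed the test (adjusted p 0.794 and 0.322).

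Among the oxygen sensors, Egln3 and Egln2 diverged. Egln3 encodes PHD3, a hydroxylase that is itself a HIF target. Its level was 2.32 and 2.42 FPKM at 14.5 dpp. The D6 libraries held 4.98, 5.57 and 6.38 FPKM, and those of D28 held 18.02, 8.50 and 7.48 FPKM. Each of the 12 culture libraries was above both 14.5 dpp testes, and Egln3 differed by 0.97 ± 0.14 at D6 (adjusted p 0.00995, and 0.0588 with a replicate block) and by 1.78 ± 0.34 at D28 (adjusted p 0.00282). Egln2, which encodes PHD1, was at 54.6 and 56.9 FPKM at 14.5 dpp and at 72.9, 56.6 and 60.1 FPKM at D28, with overlapping groups (0.17 ± 0.11, adjusted p 0.239).

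Both secreted signals rose, with the largest differences of the 34 genes at D28. Adm encodes adrenomedullin, a vasodilator peptide. It was at 1.49 and 0.707 FPKM at 14.5 dpp, at 18.1, 19.4 and 17.9 FPKM at D6 and at 45.7, 28.3 and 22.7 FPKM at D28. The lowest culture library, at 13.4 FPKM, lay above every in vivo library of any age, the highest of which held 2.13 FPKM. The difference of Adm was 3.24 ± 0.18 at D6 (adjusted p 0.000612) and 3.95 ± 0.40 at D28 (adjusted p 0.000102).

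Vegfa, the growth factor that draws vessels, was at 4.25 and 10.9 FPKM at 14.5 dpp. Its values were 33.8, 92.7 and 61.5 FPKM at D6, 27.4, 77.1 and 77.96 FPKM at D16, 135, 136 and 88.0 FPKM at D22 and 149, 50.7 and 87.05 FPKM at D28. Culture libraries of one time thus differed up to 2.93 times, while the lowest of them still held more Vegfa than any testis. Vegfa rose by 2.90 ± 0.49 at D6 (adjusted p 0.0179) and by 3.48 ± 0.56 at D28 (adjusted p 0.00112); without 14.5 dpp replicate 1 or without D6 replicate 3, the D6 difference was 2.31 or 2.85 with adjusted p of 0.0688 or 0.0723.

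**Figure D3:**
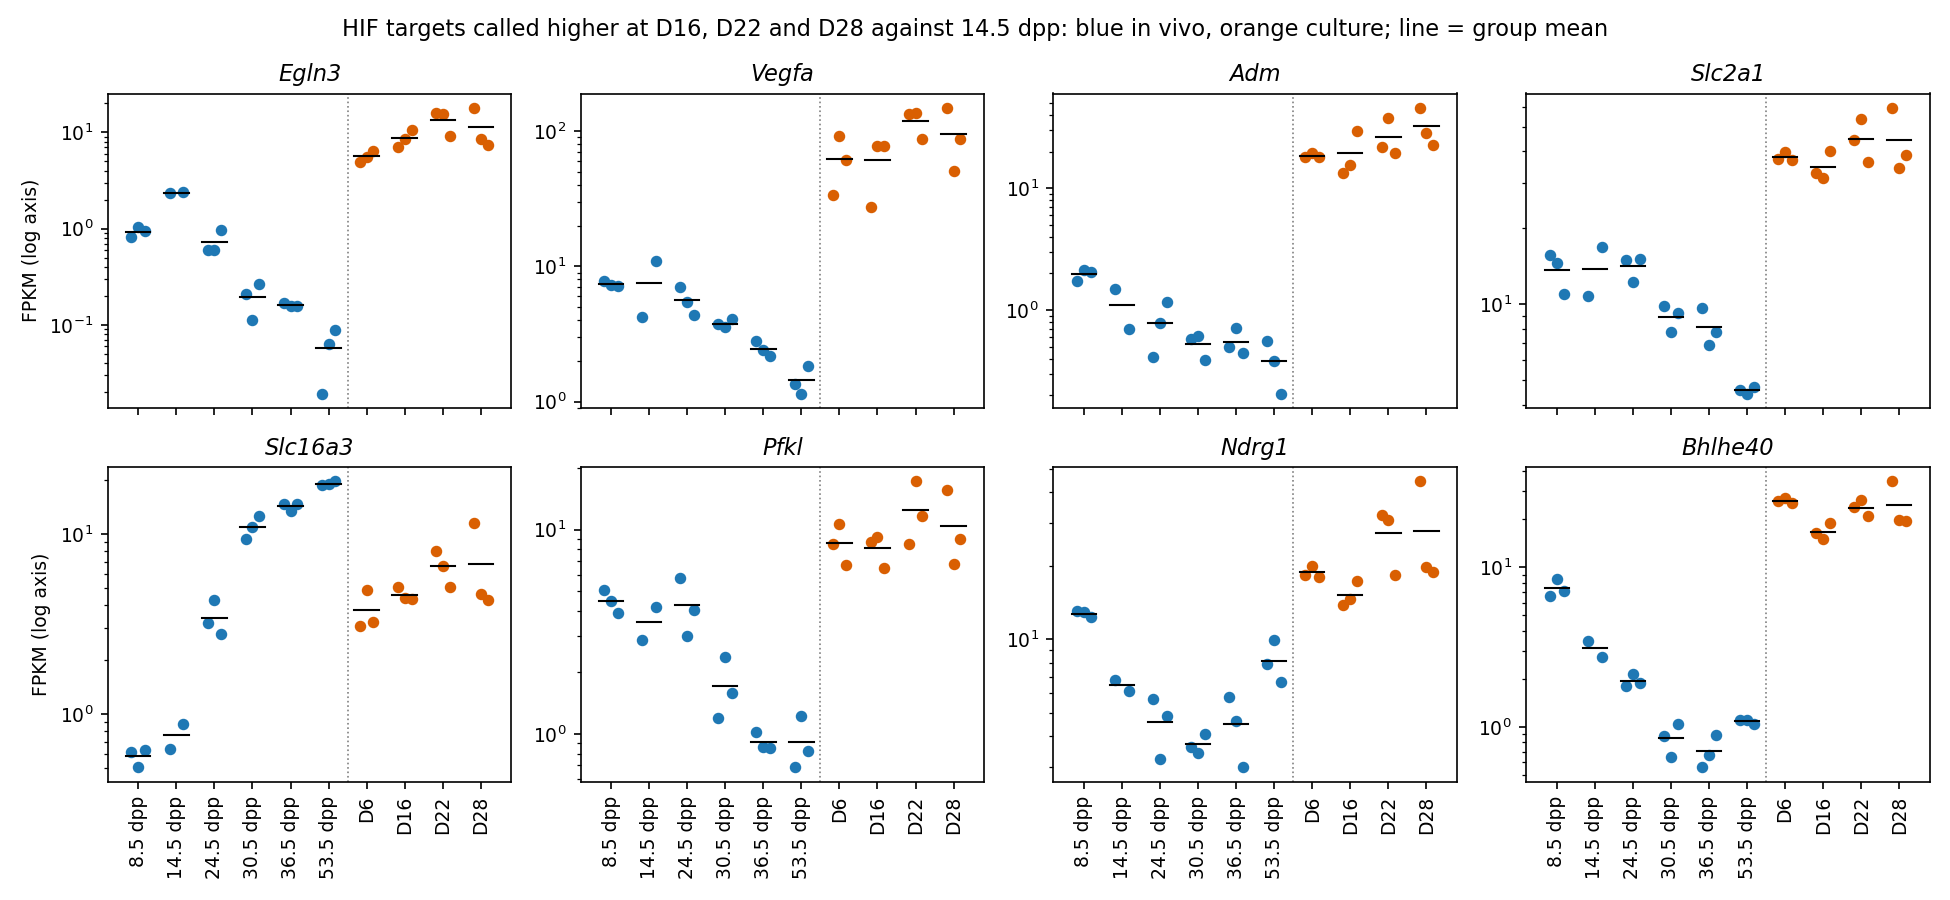
FPKM (log axis) of the 8 HIF targets that passed against 14.5 dpp at D16, D22 and D28 alike, 1 point a library in 10 groups, with a line at the group mean. In culture the points of Vegfa, Adm, Slc2a1, Egln3, Pfkl, Ndrg1 and Bhlhe40 lie above all in vivo points, while Slc16a3 climbs in vivo to 18.6 to 19.6 FPKM, above its culture values.

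Genes of glucose uptake and glycolysis differed among themselves: 3 of 10 were called higher at D28 (Slc16a3, Slc2a1, Pfkl) and 7 were not called. Slc16a3 encodes MCT4, which exports lactate. It was at 0.641 and 0.877 FPKM at 14.5 dpp and at 11.5, 4.63 and 4.29 FPKM at D28, with no overlap (2.04 ± 0.32, adjusted p 0.00111). Slc2a1 encodes the glucose transporter GLUT1 and was at 10.7 and 16.8 FPKM at 14.5 dpp against 59.5, 34.5 and 38.9 FPKM at D28 (1.61 ± 0.26, adjusted p 0.00116). Pfkl, a phosphofructokinase subunit, was at 2.88 and 4.198 FPKM against 15.5, 6.75 and 9.03 FPKM (1.28 ± 0.34, adjusted p 0.0134), and without 14.5 dpp replicate 1 its D28 difference was 1.07 with adjusted p 0.0892. Hexokinase 1 (Hk1) had the lowest difference of the role, with 52.9 and 31.2 FPKM at 14.5 dpp and 28.6, 26.8 and 32.6 FPKM at D28, values that overlap (-0.46 ± 0.20, adjusted p 0.0922). Hexokinase 2 (Hk2) differed by 0.39 ± 0.15.

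Other enzymes of glycolysis had smaller differences that missed the ratio of 2. Aldolase A (Aldoa) differed by 0.66 ± 0.15, α-enolase (Eno1) by 0.61 ± 0.13 and the platelet-type phosphofructokinase subunit Pfkp by 0.54 ± 0.11, with adjusted p of 0.00726, 0.00451 and 0.00472 and ratios of 1.73, 1.57 and 1.53. Aldoa, the most abundant of them, was nevertheless at 288 to 422 FPKM in culture and at no more than 252 FPKM in vivo. Pdk1, the kinase that keeps pyruvate from the mitochondria, was called higher at D6 (1.09 ± 0.12) and at D22 (0.94 ± 0.18), and at D28 its ratio was 1.76. Pfkfb3, which sets the phosphofructokinase activator, was at 1.85 and 2.10 FPKM at 14.5 dpp. Its D22 values were 1.88, 11.5 and 5.82 FPKM, the widest spread within a culture time among the 34 genes (6.13 times). At D16 it held 4.47 to 5.53 FPKM and at D28 5.29 to 6.08 FPKM, without overlap with 14.5 dpp. Of the 12 culture libraries, 10 lay above every in vivo library. Pfkfb3 was not called in culture against 14.5 dpp, since at D16, D22 and D28 it passed the ratio of 2 but not the F test.

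The mitochondrial targets were not called at any culture time against 14.5 dpp. Bnip3, a receptor that hands mitochondria to autophagy, was at 22.2 and 27.1 FPKM at 14.5 dpp and at 44.4, 35.5 and 30.3 FPKM at D28, without overlap but with a ratio of 1.44 (0.55 ± 0.20, adjusted p 0.0481). Its relative Bnip3l was at 137 and 113 FPKM at 14.5 dpp against 85.3, 147 and 103 FPKM at D28, which overlap (-0.19 ± 0.20). Higd1a, of the respiratory chain, differed by 0.44 ± 0.27.

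Genes that modify collagen or form disulphides were split. Ero1a, an oxidase that makes disulphides in the endoplasmic reticulum, was called at D28 with 8.08 and 9.28 FPKM at 14.5 dpp and 18.4, 18.1 and 20.4 FPKM in culture (1.05 ± 0.18, adjusted p 0.00176). P4ha1, a catalytic subunit of collagen prolyl hydroxylase, was called higher at D16 and D22 and stood just under the ratio at D28 (1.98). Plod2, a collagen lysyl hydroxylase, was called at D6 and D16 only among the 4 times, going from 18.3 and 15.6 FPKM at 14.5 dpp to 42.1, 31.1 and 43.0 FPKM at D16; its D6 call was lost on leaving out any of 4 libraries (adjusted p 0.0798 to 0.147). The cross-linking enzyme Loxl2 had the lowest difference of the role, with 13.1 and 7.82 FPKM at 14.5 dpp and 7.28, 5.28 and 6.22 FPKM at D28 without overlap (-0.63 ± 0.21, adjusted p 0.0398, ratio 0.596), and was not called.

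Of the other response genes, Bhlhe40 and Ndrg1 rose. Bhlhe40, a transcriptional repressor whose window held 4 matches, was at 3.46 and 2.75 FPKM at 14.5 dpp, at 26.1, 27.1 and 25.2 FPKM at D6 and at 34.5, 19.65 and 19.6 FPKM at D28. Replicates of Bhlhe40 at D6 lay close together, and its difference was 2.73 ± 0.13 at D6 (adjusted p 0.000463) and 2.60 ± 0.23 at D28 (adjusted p 5.05e-05). Ndrg1, a stress and differentiation gene, went from 6.77 and 6.14 FPKM to 44.4, 19.75 and 18.8 FPKM at D28 (1.83 ± 0.35, adjusted p 0.00271). Ddit4, an inhibitor of mTORC1 and a common HIF target, had the lowest difference of the role (-0.37 ± 0.17, adjusted p 0.104). It was at 94.0 and 104 FPKM at 14.5 dpp and at 94.8, 69.0 and 68.4 FPKM at D28. The histone demethylase gene Kdm3a differed by 0.09 ± 0.23 and the MYC antagonist Mxi1 by 0.29 ± 0.11. Ankrd37, an ankyrin repeat gene, had a median ratio of 2.81 but failed the F test of D16, D22 and D28 against 14.5 dpp (adjusted p 0.131).

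**Figure D4:**
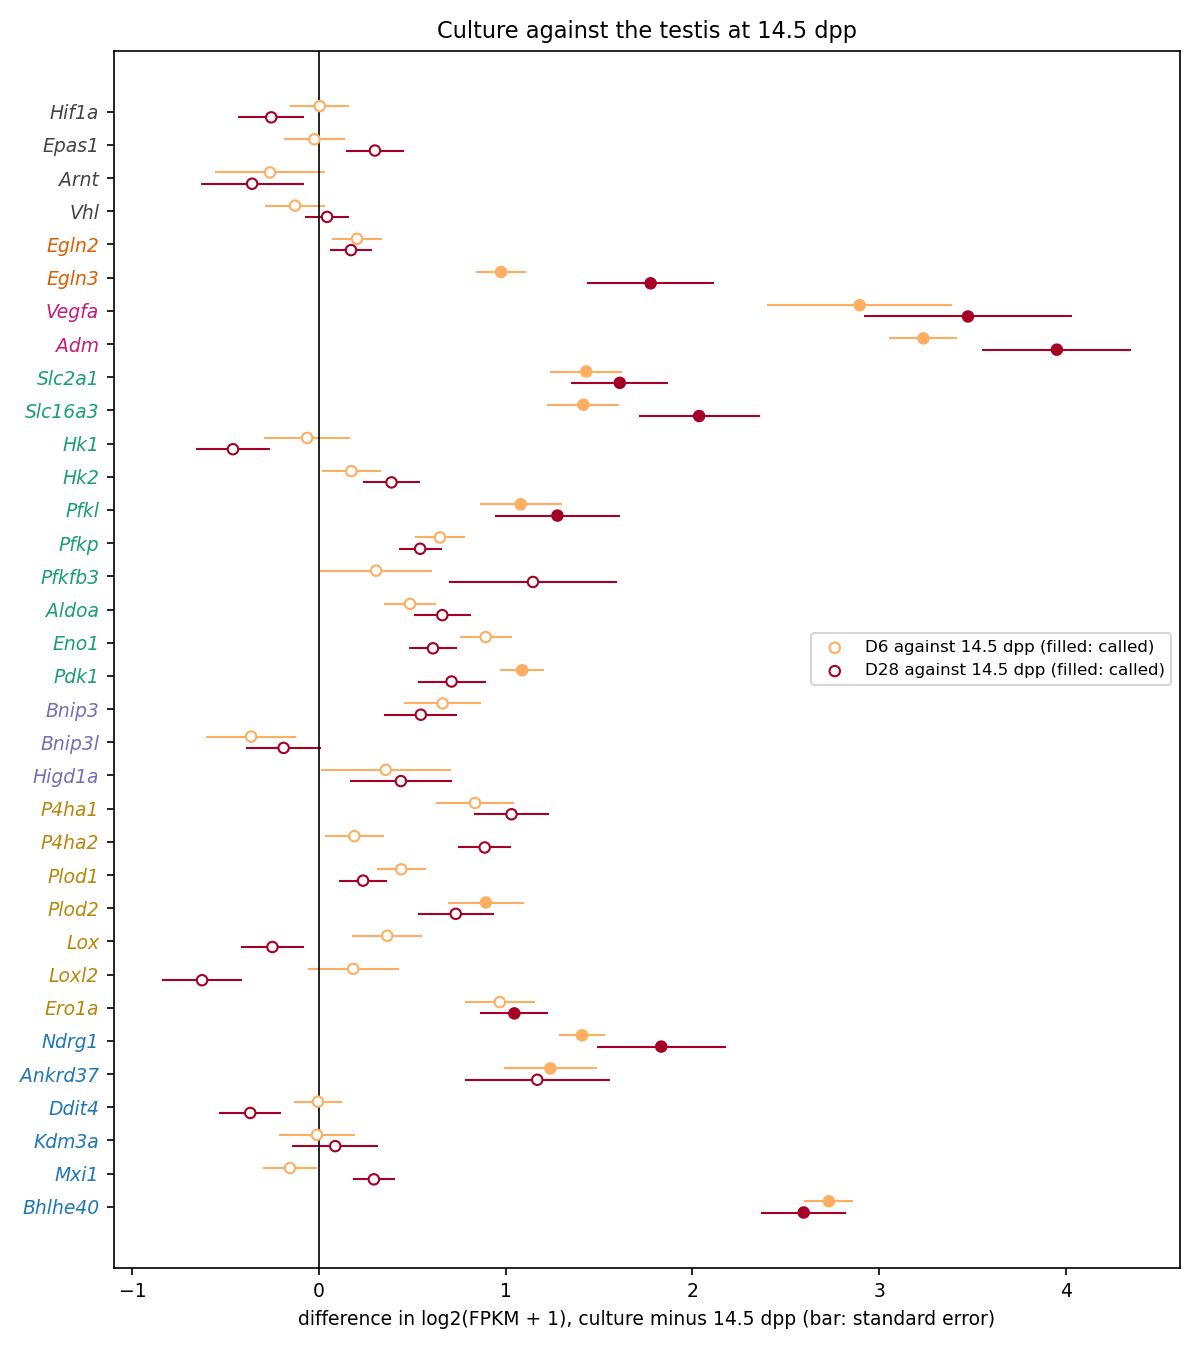
Difference of log2(FPKM + 1) from 14.5 dpp for 34 HIF genes at D6 (light) and D28 (dark), with standard errors; filled points were called. Adm (3.24 at D6, 3.95 at D28), Vegfa and Bhlhe40 lie farthest to the right at both times, and the regulators Hif1a, Epas1, Arnt and Vhl lie near 0.

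At D6, when the explants matched 14.5 dpp in age, a subset of the HIF targets was already higher. Against 14.5 dpp, 11 of 34 genes were called higher and none lower, where 5.57% of 11309 genes were called higher and 2.37% lower: Adm, Vegfa, Bhlhe40, Slc2a1, Slc16a3, Ndrg1, Ankrd37, Pdk1, Pfkl, Egln3 and Plod2. The other 23 were not called. The calls of Pfkl, Plod2, Ankrd37 and Vegfa each lost their adjusted p on leaving out at least one library, and those of Ankrd37 and Egln3 with the replicate number as a block (adjusted p 0.0727 and 0.0588). Against the starting tissue of 8.5 dpp, 12 were called higher (9.89% of 11216 genes) and 1 lower, Loxl2 (6.39% of all genes); the same counts of 12 and 1 came with median-of-ratios scaling, under which the share of higher calls among all called genes went from 60.7% to 48.2%.

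Some of the genes called against 8.5 dpp were not called against 14.5 dpp. Epas1 was called higher at D6 than at 8.5 dpp (1.35 ± 0.11, adjusted p 0.000138), with 8.50, 9.68 and 10.1 FPKM at 8.5 dpp and 23.2, 24.9 and 28.9 FPKM at D6. Its 14.5 dpp values, 23.05 and 29.3 FPKM, overlapped those of D6. Hk2 likewise went from 7.64, 7.57 and 7.13 FPKM to 17.2, 19.0 and 16.3 FPKM (1.13 ± 0.09, adjusted p 0.000113), beside 13.35 and 17.7 FPKM at 14.5 dpp. Adm and Vegfa, in contrast, stood at 2.71 ± 0.09 and 2.81 ± 0.32 above 8.5 dpp (adjusted p 8.14e-06 and 0.000546). Loxl2, at 24.2, 23.6 and 27.4 FPKM at 8.5 dpp, went to 9.66, 11.5 and 14.1 FPKM at D6 (-1.04 ± 0.14, adjusted p 0.00106).

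Over the culture itself, none of the 34 genes was called over D6, D16, D22 and D28, where 6.71% of 11358 genes were. The limma F test alone passed for 5 of them, P4ha2 (adjusted p 0.00218), Mxi1 (0.00368), Eno1 (0.0226), Lox (0.0242) and Loxl2 (0.0245), whose highest and lowest medians differed by 1.399 to 1.901 times and so missed the ratio of 2. Egln3, Vegfa, Ndrg1 and Slc16a3, each highest at D22, passed the ratio (2.797, 2.191, 2.107 and 2.047 times). They missed the F test, with adjusted p of 0.0718, 0.278, 0.178 and 0.242. D28 against D6 gave no call either, with 2.51% of 11211 genes called higher and 2.19% lower; 12 of the 34 had an unadjusted p under 0.05, 4 an adjusted p of at most 0.05 (Loxl2, Lox, Pdk1, P4ha2) and none of these a ratio of 2. P4ha2, a collagen prolyl hydroxylase subunit, was at 33.5, 30.3 and 31.7 FPKM at D6 and at 49.7, 52.9 and 54.2 FPKM at D28 (0.70 ± 0.10, adjusted p 0.00799), so its groups did not overlap. Loxl2 and Lox, both cross-linking enzymes, went the other way by -0.81 ± 0.17 and -0.61 ± 0.15 (adjusted p 0.0237 and 0.0423).

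The culture libraries of one time also differed from each other across several targets together. D28 replicate 1 held the highest value for 8 of the 8 genes called higher at D16, D22 and D28, D6 replicate 2 for 7 and D22 replicate 3 the lowest for 7. Over all 34 genes, these libraries stood out less. D28 replicate 1 was highest for 21 and lowest for 8, D6 replicate 2 highest for 15 and lowest for 7, and D22 replicate 3 lowest for 18. Other libraries tilted too: D22 replicate 2 was highest for 23 of the 34 and lowest for 0, and D16 replicate 3 highest for 22 and lowest for 7. Without D28 replicate 1, the differences at D28 were smaller but kept their calls by adjusted p: 3.68 for Adm, 3.09 for Vegfa, 2.34 for Bhlhe40, 1.64 for Slc16a3, 1.45 for Ndrg1, 1.41 for Egln3, 1.38 for Slc2a1 and 0.97 for Pfkl. The comparisons of D6, D16, D22 and D28 with 14.5 dpp share the 14.5 dpp libraries and so are not independent of each other. With D28 replicate 1 left out, Egln3 and Loxl2 were called over the 4 culture times.

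In vivo, each of the 34 genes was called over the 6 ages, where 90.2% of 12531 genes were; under quantile normalization 31 were, and under median-of-ratios scaling 28. From 8.5 to 53.5 dpp, 22 of 33 genes tested were called lower (51.6% of 12089 genes) and 4 higher (24.0%); the median difference was -1.36 for the HIF genes and -0.81 for all genes. The median of all genes fell as well: under median-of-ratios scaling, which sets the all-gene median at 0.16, 14 were called lower and 7 higher, the share of higher calls among all called genes went from 31.7% to 55.6%, the HIF median was -0.41, and Mxi1 and Epas1 changed sign. Over the same ages the summed markers of Sertoli cells went from 212 to 297 FPKM to 15.6 to 19.0 FPKM, those of endothelial cells from 51.8 to 54.7 FPKM to 2.25 to 3.91 FPKM, and spermatid markers from 3.64 to 6.57 FPKM to 1.143e+04 to 1.688e+04 FPKM; their part in the result was not tested.

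Hif1a, among the genes that fell, held 52.7, 52.5 and 56.7 FPKM at 8.5 dpp, 22.8, 24.02 and 35.8 FPKM at 24.5 dpp, 7.87, 7.02 and 7.33 FPKM at 36.5 dpp and 5.69, 5.07 and 4.86 FPKM at 53.5 dpp (-3.15 ± 0.08 from 8.5 to 53.5 dpp, adjusted p 4.72e-08). Neighbouring ages from 24.5 dpp on did not overlap. Collagen genes fell as a group, with all 7 called lower; Loxl2, at 0.138, 0.173 and 0.107 FPKM at 53.5 dpp, had the lowest difference (-4.51 ± 0.08), followed by Plod2 (-3.34 ± 0.09). The 3 mitochondrial genes fell too, by -2.87 ± 0.14 for Bnip3, -2.65 ± 0.10 for Bnip3l and -1.53 ± 0.09 for Higd1a.

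The 4 genes called higher at 53.5 dpp were Hk1, Slc16a3, Egln2 and Ankrd37. Hk1 was at 53.2, 61.0 and 54.5 FPKM at 8.5 dpp and at 703, 575 and 597 FPKM at 53.5 dpp (3.45 ± 0.11, adjusted p 8.37e-08). Slc16a3 rose from 0.611, 0.505 and 0.633 FPKM to 18.6, 18.9 and 19.6 FPKM (3.66 ± 0.07, adjusted p 1.49e-08), in steps from each age after 14.5 dpp to the next without overlap. Egln2 rose from 57.2, 53.7 and 46.0 FPKM to 179, 157 and 166 FPKM (1.66 ± 0.11, adjusted p 3.35e-06). Ankrd37 was called higher too (0.91 ± 0.28, adjusted p 0.0167), but its groups overlapped and its adjusted p was 0.0593 to 0.0639 on leaving out any of 4 libraries.

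**Figure D5:**
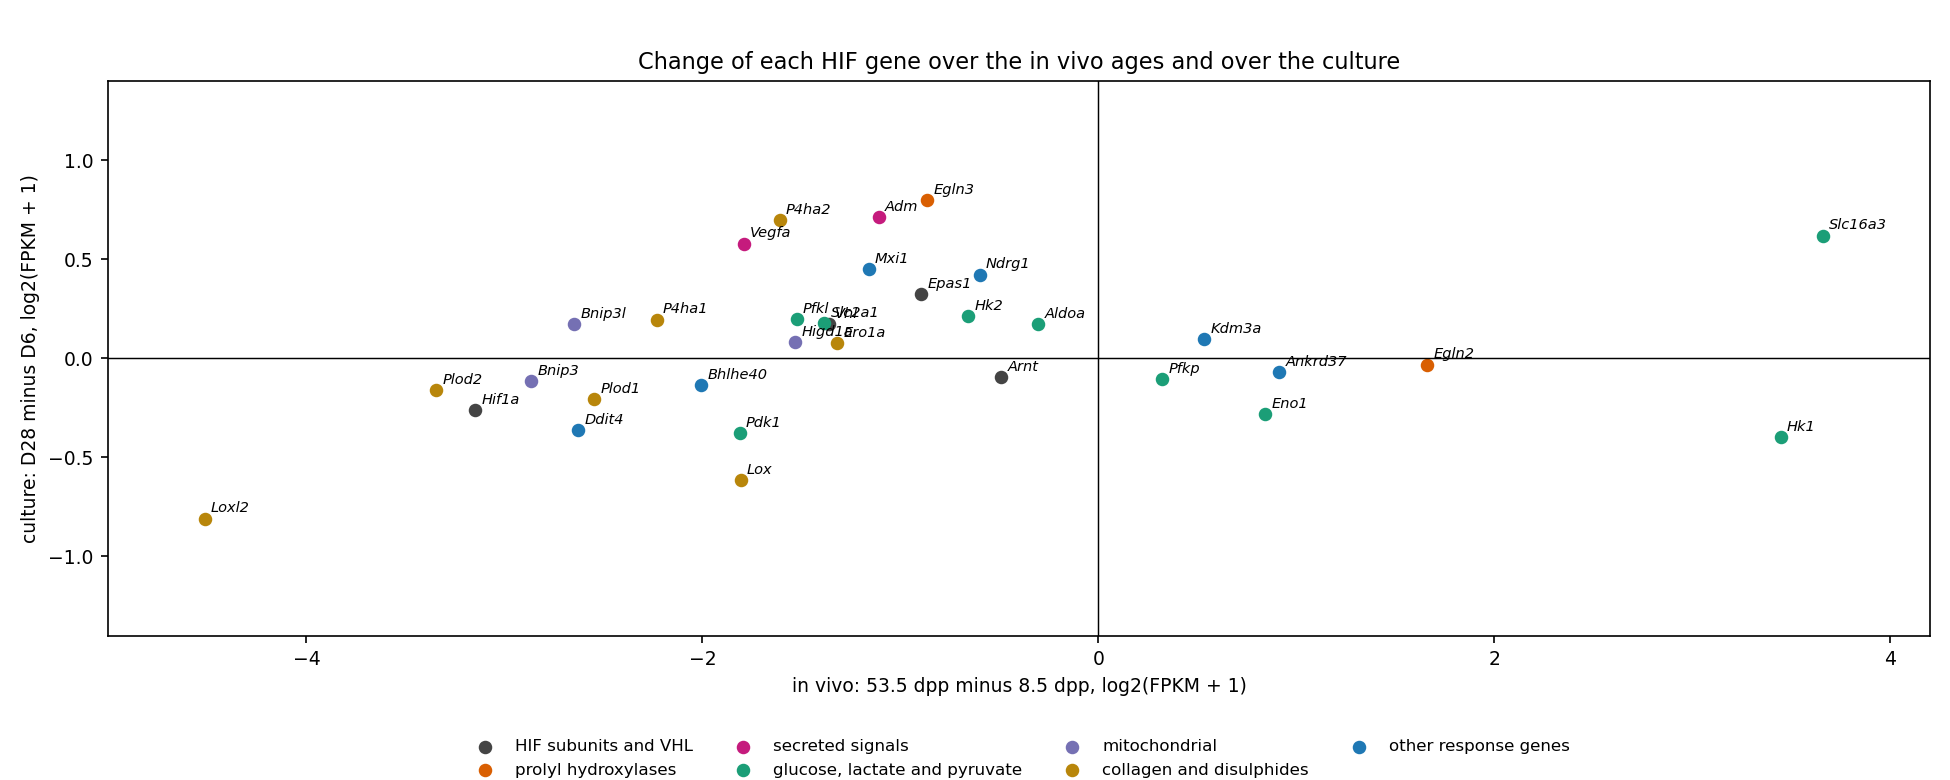
Change of each HIF gene on the log2(FPKM + 1) scale, 53.5 minus 8.5 dpp in vivo (x axis) and D28 minus D6 in culture (y axis), coloured by role; Pfkfb3 failed the in vivo filter and is not drawn. Points spread from -4.51 for Loxl2 to 3.66 for Slc16a3 in vivo and stay within -0.81 and 0.80 in culture.

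Against testes of the matched age, more HIF genes were called at the later ages, as were more genes in all. At D16 against 24.5 dpp, 18 of 34 genes were called higher (25.3% of 11658 genes) and 2 lower (18.3%), Ankrd37 and Kdm3a. At D22 against 30.5 dpp, 26 were called higher (42.1% of 12118 genes) and 4 lower (22.9%). At D28 against 36.5 dpp, again 26 were called higher (46.7% of 12210 genes) and 4 lower (23.6%): Hk1, Pfkp, Egln2 and Slc16a3. These comparisons carry a shift of all genes, whose median difference at D28 was 0.64 and became -0.11 under median-of-ratios scaling, where 23 HIF genes were called higher and 6 lower and the share of higher calls among all called genes went from 66.4% to 44.9%. For D22 against 30.5 dpp, that scaling gave 24 higher and 6 lower, with a share of 46.0% in place of 64.8%.

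The gap between culture and testis thus differed between D28 and D6 for many genes. The test of that difference itself passed (limma, adjusted p of at most 0.05 and a difference of at least 1) in the positive direction for 22 of the 34 genes, beside 38.4% of 12482 genes, and in the negative direction for 5, beside 19.2%. The median of this difference over all genes was 0.63. It holds the change of the testis from 14.5 to 36.5 dpp as well as that of the culture from D6 to D28. None of the 34 genes was called at D28 against D6. For Hif1a, medians were 55.4 and 7.33 FPKM at 14.5 and 36.5 dpp, and 60.2 and 46.4 FPKM at D6 and D28. Those of Hk1 were 42.05 and 307 FPKM in vivo, and 38.5 and 28.6 FPKM in culture.

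The largest differences at D28 against 36.5 dpp belonged to the same 3 genes as against 14.5 dpp, Vegfa, Adm and Bhlhe40. Vegfa was at 2.83, 2.40 and 2.17 FPKM at 36.5 dpp (4.67 ± 0.35 below D28, adjusted p 8.71e-06), Adm at 0.501, 0.716 and 0.442 FPKM (4.36 ± 0.24, adjusted p 1.84e-06) and Bhlhe40 at 0.558, 0.670 and 0.885 FPKM (3.86 ± 0.22, adjusted p 2.31e-06). Plod2 followed with 1.19, 1.07 and 1.17 FPKM at 36.5 dpp (3.79 ± 0.11, adjusted p 6.3e-08). Hif1a itself was higher in culture (2.49 ± 0.16, adjusted p 4.22e-06). Hk1 showed the reverse, with 382, 307 and 302 FPKM at 36.5 dpp against 28.6, 26.8 and 32.6 FPKM at D28 (-3.44 ± 0.13, adjusted p 3.41e-07). Slc16a3, which was higher in culture than at 14.5 dpp, was lower at D28 than at 36.5 dpp (-1.08 ± 0.31, adjusted p 0.0136), and without D28 replicate 2 the adjusted p was 0.0503.

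Another 51 genes of the HIF pathway (cofactors, further glycolytic enzymes, vessel signals and other targets) were followed as a separate list, of which 49 were found. This list, too, was made with earlier results of these data known. Of the 41 tested against 14.5 dpp, 10 were called higher at D28 and none lower, where 7.63% of all genes were called higher and 6.01% lower. At D16, 4 were called higher (6.56% of all genes) and at D22, 9 (7.34%), with none lower (5.35% and 5.51%). Only 4 of the 41 were called higher in each of D16, D22 and D28, beside 5.69% of all genes. At D6, 12 were called higher and none lower, beside 5.57% and 2.37% of all genes. The largest differences at D28 were those of Igfbp3, which binds insulin-like growth factors, and Cxcr4, a chemokine receptor. Igfbp3 was at 37.1 and 28.7 FPKM at 14.5 dpp and at 554, 390 and 342 FPKM at D28 (3.64 ± 0.26, adjusted p 2.07e-05). Cxcr4 was at 10.1 and 8.36 FPKM at 14.5 dpp and at 82.9, 44.3 and 55.03 FPKM at D28 (2.55 ± 0.26, adjusted p 9.84e-05). From 8.5 to 53.5 dpp in vivo, 27 of 41 were called lower and 6 higher, beside 51.6% and 24.0% of all genes, a split that turned for all genes under median-of-ratios scaling, as given above.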

How the data were processed

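RNA was poly(A) selected, made into stranded libraries and sequenced as single 50 bp reads. Per the labels and the study's methods, the authors demultiplexed with bcl2fastq 2.17.1.14, aligned to rn6 with STAR 2.5.2a and RefSeq models, and deposited StringTie FPKM values per gene and library. From these, log2(FPKM + 1) was fitted with limma 3.58.1 (R 4.3.3) over every gene whose median reached 0.5 FPKM in one of the compared groups. Calls needed a Benjamini-Hochberg adjusted p of at most 0.05 and a ratio of medians of at least 2; D16, D22 and D28 against 14.5 dpp used an F test, with the moderated test of each contrast printed for single genes. The fits were tested on simulated data. Tables and figures were made with Python 3.11.15, pandas 2.3.3, numpy 2.4.6 and matplotlib 3.10.9. Replicates were separate testes or pools of explants, and p-values measure the spread between them only. The outlying 14.5 dpp library was left out. Every gene of the list was described by role, with the genes of largest and smallest difference in each role at D28 in full; genes of the separate pathway list were named if among its 2 largest rises or falls. The members and lists were chosen with earlier results of these data known. Promoter windows came from RefSeq GRCr8 and were matched by Entrez identifier, not by rn6 coordinates.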

Additional observations from a re-analysis of the deposited data

Results flagged for a closer look

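For 27 of the 34 genes, the gap between culture and the testis of matched age differed between D28 and D6, by a limma test of the difference (D28 minus 36.5 dpp) minus (D6 minus 14.5 dpp) on the log2(FPKM + 1) scale. Among all 12482 genes, 38.4% passed in the positive and 19.2% in the negative direction. The 4 groups share no library. Each difference holds the change of the testis from 14.5 to 36.5 dpp as well as that of the culture, and no gene of the 34 was called at D28 against D6.

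The positive differences among the collagen genes were 2.901 for Plod2, 2.284 for P4ha2, 2.24 for Loxl2, 2.103 for Plod1, 1.635 for P4ha1 and 1.162 for Ero1a. The regulators and sensors Hif1a, Epas1, Egln3 and Vhl had 2.486, 2.352, 2.337 and 1.984. For the mitochondrial genes, the difference was 2.77 for Bnip3l, 2.064 for Bnip3 and 1.538 for Higd1a. In glycolysis, Pfkfb3 had 1.959, Hk2 1.61, Pfkl 1.428 and Aldoa 1.264. Signals and response genes had 2.34 (Mxi1), 2.326 (Ddit4), 1.773 (Vegfa), 1.133 (Bhlhe40) and 1.126 (Adm).

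The negative differences were -3.38 for Hk1, -2.493 for Slc16a3, -2.266 for Pfkp, -1.56 for Ankrd37 and -1.435 for Egln2. Each of these but Ankrd37 was called lower at D28 than at 36.5 dpp.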

How the results depend on the processing

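Of 2266 values of called genes under other settings, 2232 kept their direction and their adjusted p of at most 0.05, 32 lost the adjusted p and 2 changed sign: under median-of-ratios scaling, 53.5 against 8.5 dpp became 0.05308 for Mxi1 and 0.1809 for Epas1. With a ratio of medians of at least 1.5 in place of 2, 13 genes were called at D16, D22 and D28 against 14.5 dpp (8 with 2), 24 at D6 against 8.5 dpp (13 with 2), 4 over the culture times (Lox, Loxl2, Mxi1, P4ha2) and 3 at D28 against D6 (Lox, Loxl2, P4ha2), both 0 with 2. In 1 fit of all 10 groups, 1 gene, Egln3, was called over the culture times. Leaving out 1 library gave 0 to 2 over the culture times (Loxl2 without D6 replicate 1, Pfkfb3 without D22 replicate 1, Egln3 without D22 replicate 3, Egln3 and Loxl2 without D28 replicate 1) and 0 to 1 at D28 against D6 (Loxl2). The cause was not tested.

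With a replicate block, 7 genes were called at D16, D22 and D28 against 14.5 dpp and 9 at D6 against 14.5 dpp, where Ankrd37 and Egln3 lost their adjusted p (0.0727 and 0.0588); the other counts were 13, 20, 30, 30, 34, 26, 0 and 0, as without it. The labels do not say whether the numbers pair the samples. Of the 18 same-numbered pairs of culture libraries, 5 had a correlation of deviations over 0.1 (-0.13 to 0.22, median 0.05). Among the 36 culture pairs with different numbers, 2 did (-0.33 to 0.31, median -0.02). A pairing by number was thus neither shown nor excluded. With 2 libraries at 14.5 dpp and an unknown depth, values under about 1 FPKM carry little precision. These include Slc16a3 (0.641 and 0.877 FPKM) and 1 Adm value (0.707 FPKM) at 14.5 dpp, and Egln3 in vivo from 24.5 dpp on.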
